A study of Homo sapiens with 6 samples.

Results

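The regions described here are stretches of acetylated chromatin in Calu-3 cells whose middle carries 1 called region of H3K4me1. Calu-3 is an established cell line from a human lung adenocarcinoma, with features of airway epithelium. Cells grown in low-glucose DMEM with serum, with no treatment named in the labels, were profiled by chromatin immunoprecipitation and sequencing (ChIP-seq) of EHF (2 libraries, antibody clone 5A.5), H3K4me1 (1 library) and H3K27ac (1 library), with 2 libraries of input DNA. A member, called a centred region below, is an H3K27ac region under 8000 bp wide that overlaps exactly 1 H3K4me1 region and has its midpoint inside it. Of the 34638 H3K27ac regions, 34104 were under the width limit, 9788 of these overlapped exactly 1 H3K4me1 region, and 4613 were centred, which is 13.3% of all. All groups compared below come from this 1 line, so they differ in chromatin and not in treatment or genotype. No label ties the EHF replicates to separate cultures, and with no gene names here the cell type was not checked against marker genes.

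H3K4me1 is written on histone H3 by the methyltransferases KMT2C and KMT2D and marks enhancers, both active ones and ones that are only primed. H3K27ac is written by the acetyltransferases CBP and p300 and is found at active enhancers and promoters. Bound transcription factors displace nucleosomes, so that the modified histones of an active enhancer often flank the factor and leave the site itself without signal. EHF (Ets homologous factor) belongs to the ETS transcription factors and is made mainly in epithelia. ETS factors recognise DNA with a GGAA core. Promoters carry H3K27ac with H3K4me3 in place of H3K4me1 around the start site, and H3K4me3 was not analysed here.

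The members were chosen by measured values, namely the called positions and widths of both marks, so the widths, overlaps and scores of the marks are given as a description. The EHF lists were not used by the rule. Depth per the file headers was 10176290 tags for EHF replicate 1, 8418631 for EHF replicate 2, 12989646 for H3K4me1 and 21426939 for H3K27ac. The EHF lists hold 1537 and 5216 peaks, so replicate 2 gave more peaks from fewer tags, and counts are given for each list separately. Exact 95% intervals (Clopper-Pearson for shares, exact Poisson for densities) stand beside the values. They cover counting error only, tags and neighbouring regions are not independent, and with 1 library per mark the differences between kinds of region were not tested. The lists carry hg19 coordinates and no annotation of that build was used here, so the genes, exons, introns and sequences at these positions were not analysed here.

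Centred regions were mostly small. Their width ranged from 501 bp, a single calling window, to 7971 bp, with a median of 844 bp and quartiles of 501 and 1605 bp. In comparison, the median was 1370 bp over all H3K27ac regions and 2195 bp over the 5175 regions that also held exactly 1 H3K4me1 region but had their midpoint outside it (off-centre regions). Of the centred regions, 2654 (57.5%) were under 1000 bp, 1119 were 1000 to under 2000 bp, 686 were 2000 to under 4000 bp and 154 (3.34%) were 4000 to under 8000 bp. Narrow regions therefore dominate any count over all members. They held 5.93 Mb, or 9.14% of all bases in H3K27ac regions.

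The H3K4me1 regions at their middle were wider than usual for that mark. Their median width was 768 bp, against 501 bp for all H3K4me1 regions and also 501 bp for the partners of off-centre regions. A single window made up 31.1% of the partners of centred regions and 53.3% of all H3K4me1 regions. A wide H3K4me1 region reaches a midpoint more easily than a narrow one, and this difference is no finding. The 4613 members shared 4578 distinct H3K4me1 regions, and 35 of these held 2 members each, which is where a broad H3K4me1 region spans a gap between neighbouring acetylated regions. In 557 members (12.1%) both regions were single windows.

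The marks lay against each other in 3 arrangements. In 2150 members (46.6%, 45.2% to 48.1%) the regions were staggered, each reaching past the other at one end. In 1022 of these the H3K4me1 region reached past the end of higher coordinate and in 1128 past the lower one. In 1666 members (36.1%, 34.7% to 37.5%) the H3K4me1 region lay wholly inside the acetylated one, counting 4 with identical spans. These were the wider members, with a median H3K27ac width of 1635 bp, and left acetylated flanks with a median of 362 bp and a maximum of 3793 bp on a side. In the other 797 (17.3%, 16.2% to 18.4%) the acetylated region lay inside the H3K4me1 region. These acetylated regions had a median width of 501 bp within H3K4me1 regions of 1265 bp.

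**Figure D1:**
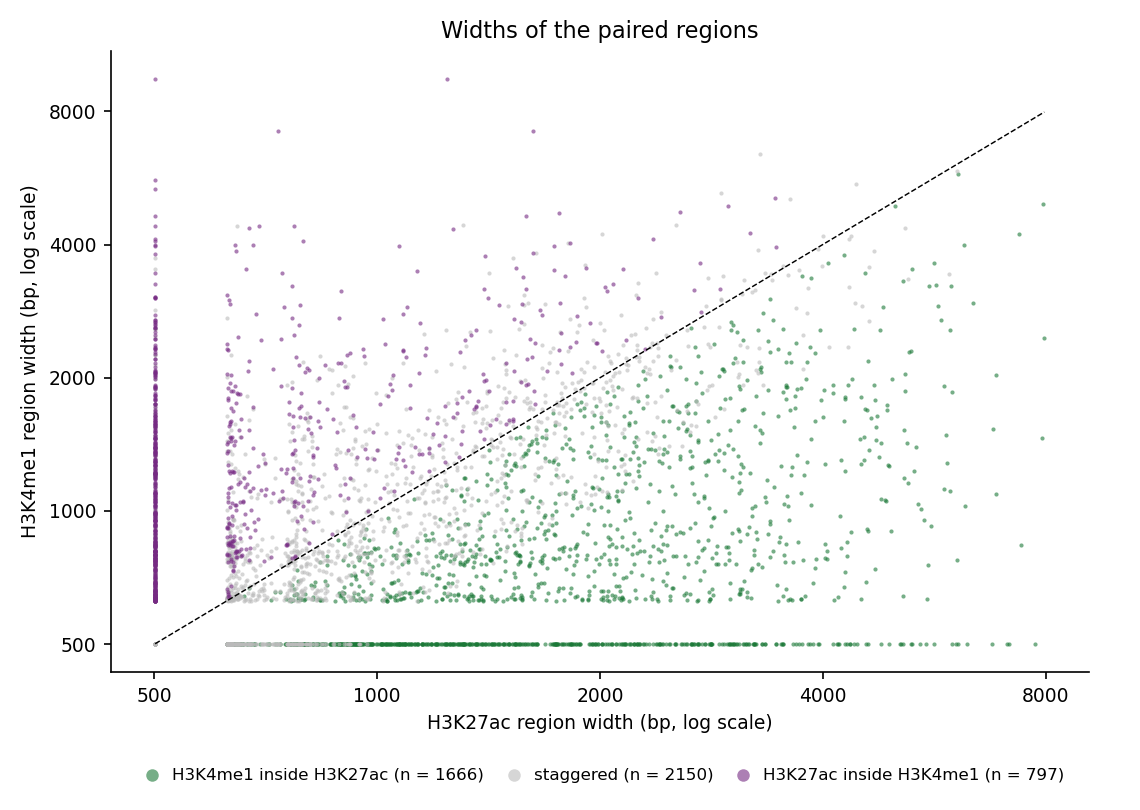
Width of each centred H3K27ac region (horizontal axis, bp, log scale) against the width of its H3K4me1 region (vertical axis, bp, log scale), 1 point for each of the 4613 members, coloured by arrangement, with a dashed line at equal widths. The 1666 members with H3K4me1 inside lie on or below the line and the 797 with H3K27ac inside lie above it, and the lines of points at 501 bp are regions of a single calling window.

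H3K4me1 covered a median of 76.3% of a member (quartiles 55.1% and 94.6%), and 59.8% of all member bases. The share fell from 86.2% in members under 1000 bp to 60.8%, 45.0% and 28.1% in the 3 wider classes. The share with H3K4me1 wholly inside went the other way, from 14.5% in the narrowest class to 89.6% in the widest. In most of the wide members H3K4me1 was thus an island within acetylated chromatin, and in the narrow ones it covered most of the acetylated region and could reach beyond it. Only 243 members (5.27%) were filled to under 25%. The centres of the paired regions lay a median of 147.5 bp apart, with an upper quartile of 264 bp and a maximum of 3135 bp. H3K4me1 was the wider of the pair in 1615 members, the narrower in 2440 and equal in 558. The midpoint of 780 members (16.9%) lay within 100 bp of the edge of the H3K4me1 region, as did that of 695 off-centre regions (13.4%), so the border between these kinds runs through a continuous range.

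**Figure D2:**
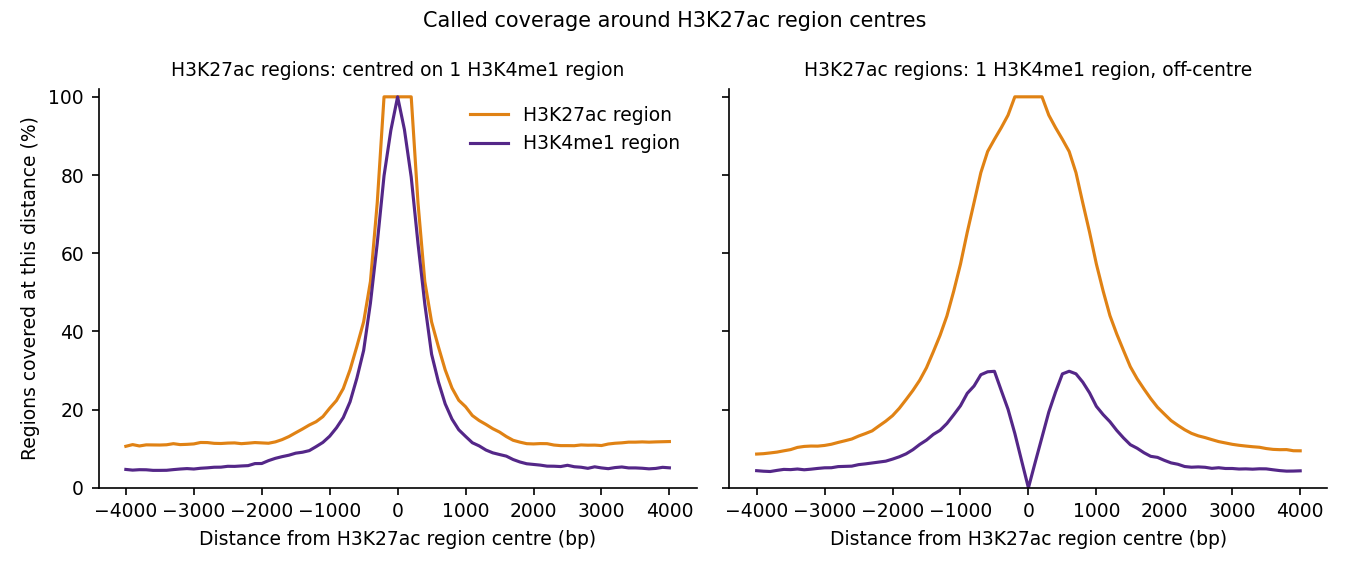
Share of regions (%) covered by a called H3K27ac region or a called H3K4me1 region at each distance from the H3K27ac midpoint (bp, steps of 100 bp, to 4000 bp on either side), for centred regions (left, n = 4613) and off-centre regions (right, n = 5175). The rule fixes the H3K4me1 value at the midpoint, at 100% on the left and 0 on the right, and at 4000 bp H3K4me1 coverage in centred regions is 4.70% and 5.12%.

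Away from the midpoint both marks ended early. At 500 bp on the side of lower coordinates 42.5% of centred regions were covered by H3K27ac and 35.1% by H3K4me1, and on the other side the values were 42.4% and 34.2%. At 1000 bp H3K27ac covered 20.4% and 20.7%, and H3K4me1 covered 13.2% on both sides. At 2000 bp H3K27ac was at 11.5% and 11.2% and at 4000 bp it was at 10.6% and 11.8%, which counts neighbouring acetylated regions as well. The sides were nearly alike at each of these distances. A region's own H3K27ac is symmetric about its midpoint by definition, so only H3K4me1 and neighbouring regions could differ by side. Off-centre regions were covered by H3K27ac in 57.2% and 57.3% at 1000 bp.

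The acetylation of centred regions was modest. The deposited score is the authors' tag count of an interval scaled to a library of 10000000 tags, and it is given here per kb. Its median was 24.0 per kb for H3K27ac in centred regions (quartiles 19.8 and 31.7), against 27.9 in all H3K27ac regions, 34.7 in off-centre regions and 26.0 in regions without H3K4me1. Density rose with width, from 20.96 per kb in members under 1000 bp to 27.1, 34.7 and 47.0 in the wider classes. Off-centre regions of the same 4 classes had 20.3, 29.3, 39.6 and 49.6 per kb, and regions without H3K4me1 had 20.2, 29.7, 37.7 and 47.3. Centred regions were thus slightly above the others in the narrowest class and below them in the 3 wider ones. The H3K4me1 score per kb had a median of 23.7 in centred regions, 23.7 in off-centre regions and 23.2 in all H3K4me1 regions. It varied little with member width, from 23.5 in the narrowest class to 24.3 in the widest.

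These densities lie close to the tag thresholds of the caller. Per the file headers, the threshold of 17 tags in a 500 bp window corresponds to 15.9 scaled tags per kb for H3K27ac, and that of 13 tags to 20.02 per kb for H3K4me1. The median centred region stood at 1.51 times the first and 1.19 times the second. Over all regions of the lists these ratios were 1.76 and 1.16. The thresholds are no lower bound on the deposited densities. For H3K4me1 the lower quartile over all regions was 19.96 per kb, and the minimum in centred regions was 14.04. For H3K27ac the minimum in centred regions was 11.66. Across centred regions the densities of the marks rose together (Spearman rho 0.43, n = 4613 regions), as they did in off-centre regions (0.36, n = 5175). The widths of the paired regions had a rho of 0.33. These are descriptions across positions that share the libraries, the mapping and, per the labels, the same input.

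EHF peaks were found in a small share of centred regions. In replicate 1, 96 members overlapped a peak, or 2.08% (1.69% to 2.54%), beside 2.65% of all H3K27ac regions. In replicate 2, 261 did, or 5.66% (5.01% to 6.36%), beside 8.99% of all. A site found in both lists lay in 49 members, or 1.06% (0.787% to 1.40%), beside 1.71% of all. In all, 307 members (6.66%) held a peak of either list, of which 46 had a peak of replicate 1 alone, 211 of replicate 2 alone and 50 of both. A shared site was placed by the joint span of both its peaks, so these 50 members need not be the 49 above. A single peak was the rule: 1 member held more than 1 peak of replicate 1, and 8 held more than 1 of replicate 2. Limited to intervals at or above the median score in both marks, 1290 centred regions remained. Of them 5.43% (4.25% to 6.81%) held a replicate 1 peak, beside 4.55% of all and 5.75% of off-centre regions so limited. The order against all regions turned, but the value of all regions lay within that interval. In replicate 2 the order held, at 13.5% (11.7% to 15.5%) beside 15.0%, which also lay within the interval. The score used for this limit is the total of an interval, not per kb, so wider intervals tend to score higher. Without this limit, the shares in replicates 1 and 2 were 4.50% (3.95% to 5.10%) and 13.2% (12.3% to 14.2%) among off-centre regions. Among regions without H3K4me1 they were 1.73% (1.57% to 1.91%) and 7.33% (6.99% to 7.68%).

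The share with EHF rose with the width of the region, and centred regions were narrow. In members under 1000 bp the share with a replicate 2 peak was 2.34% (1.80% to 2.98%), close to the 2.93% (2.62% to 3.28%) of regions of that width without H3K4me1. In members of 1000 to under 2000 bp it was 7.06% (5.63% to 8.72%), against 9.54% (8.18% to 11.1%) off-centre and 9.36% (8.70% to 10.1%) without H3K4me1, with intervals that overlap. In members of 2000 to under 4000 bp it was 12.0% (9.62% to 14.6%), against 15.0% and 12.6%. In members of 4000 to under 8000 bp it was 24.7% (18.1% to 32.3%), against 23.8% and 18.6%. Replicate 1 gave 0.791%, 1.97%, 5.10% and 11.7% in the 4 classes of members. In off-centre regions the same classes gave 1.42%, 3.36%, 5.01% and 7.76%, and without H3K4me1 they gave 0.666%, 1.90%, 3.26% and 6.20%. The lists do not give the same order: replicate 1 placed centred regions above regions without H3K4me1 in all 4 classes, with overlapping intervals, and replicate 2 did so only in the widest class.

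**Figure D3:**
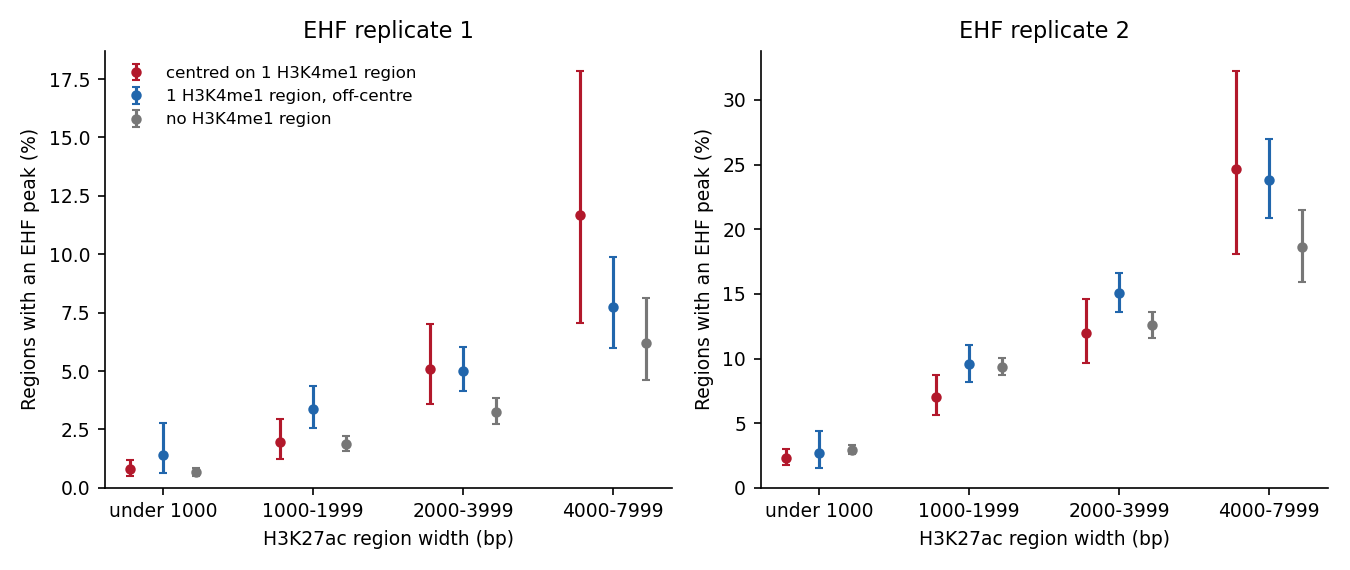
Share of H3K27ac regions with an EHF peak (vertical axis, %) in 4 classes of region width (horizontal axis, bp) for replicate 1 (left) and replicate 2 (right), with points for centred regions, off-centre regions and regions without H3K4me1, and bars for the exact 95% interval. The share rises with width in all 3 kinds of region, from 2.34% to 24.7% in centred regions in replicate 2.

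All regions were also split by their total H3K27ac score, not taken per kb, into 4 groups of nearly equal size. EHF rose with this score. Wider regions tend to have a higher total, so this split is not separate from that by width. Of the centred regions, 37.2% fell in the lowest group (scores of 6 to 15) and 12.2% in the highest (89 and above), against 6.72% and 45.1% of off-centre regions. In the lowest group 1.57% of centred regions (1.04% to 2.28%) had a replicate 2 peak, against 1.41% of all regions. In the second group (scores of 16 to 38) the share was 3.51% (2.64% to 4.56%), against 4.72% of all regions and 6.02% (4.45% to 7.92%) of off-centre regions, whose interval overlaps. In the third group (scores of 39 to 88) it was 8.65% (6.82% to 10.8%), against 9.80% of all and 9.88% of off-centre regions. In the highest group it was 19.5% (16.3% to 23.1%), against 20.4% of all, 19.9% of off-centre regions and 18.1% of regions without H3K4me1. Replicate 1 gave 0.466%, 1.26%, 2.31% and 8.88% of centred regions in the 4 groups, against 0.353%, 1.18%, 2.47% and 6.69% of all regions. In the highest group its interval (6.66% to 11.5%) overlapped that of all regions (6.17% to 7.24%) and that of off-centre regions (6.64%, 5.66% to 7.72%), and lay above that of regions without H3K4me1 (4.78%, 4.12% to 5.50%).

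The arrangement of the marks went with EHF too. Replicate 2 peaks were in 9.36% (8.01% to 10.9%) of members with H3K4me1 inside, 4.14% (3.34% to 5.07%) of staggered members and 2.01% (1.15% to 3.24%) of members with H3K27ac inside. Replicate 1 gave 3.36%, 1.40% and 1.25% in that order. The first kind is also the widest, with median H3K27ac widths of 1635 bp, 650 bp and 1 window in the same order, and the part of width in this order was not tested.

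EHF sites lay both on the H3K4me1 of centred regions and on their acetylated flanks. Over all members the density on H3K4me1 was lower in replicate 2, and in members of 2000 bp or more the densities differed by less than counting error in both replicates. By the centre of the peak, replicate 2 had 123 peaks in bases with both marks, or 34.6 per Mb (28.8 to 41.3), and 127 in bases with H3K27ac alone, or 53.3 per Mb (44.4 to 63.4). The ratio was 0.65 (0.50 to 0.84). With each H3K4me1 region extended by 200 bp it became 0.92 (0.70 to 1.24), so the lower density in replicate 2 did not hold under that alternative. Replicate 1 had 47 and 40 peaks, or 13.2 (9.73 to 17.6) and 16.8 (12.0 to 22.9) per Mb, with a ratio of 0.79 (0.51 to 1.23). In members of 1000 to under 2000 bp the ratio was 0.54 (0.33 to 0.86) in replicate 2 and 1.10 (0.42 to 3.22) in replicate 1. In members of 2000 bp or more, where both parts are long, the densities were 47.5 (35.7 to 62.0) and 48.4 (38.0 to 60.9) per Mb in replicate 2, a ratio of 0.98 (0.68 to 1.41). In replicate 1 they were 20.2 (12.8 to 30.4) and 19.9 (13.4 to 28.4), a ratio of 1.02 (0.56 to 1.81). The parts of the H3K4me1 regions that reached beyond the acetylated region held fewer, at 19 peaks of replicate 2, or 16.0 per Mb (9.63 to 24.98), and 9 of replicate 1, or 7.58 per Mb (3.47 to 14.4).

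Off-centre regions were unlike this. Their H3K4me1 part held 33 replicate 2 peaks, or 12.2 per Mb (8.37 to 17.1), against 65.9 per Mb (61.0 to 71.0) in the rest, a ratio of 0.18 (0.13 to 0.26). In replicate 1 the ratio was 0.21 (0.11 to 0.37). The rule sets off-centre H3K4me1 nearer the ends of its region, so the stretch at the same distance on the other side of the midpoint was counted as well. That mirrored stretch had 134 replicate 2 peaks, or 49.4 per Mb (41.4 to 58.5), and 46 of replicate 1 against 12 in the H3K4me1 part. The intervals of the ratio in centred and off-centre regions do not overlap in either replicate, and this difference was not tested. The rule itself places H3K4me1 at the midpoint in one kind and away from it in the other, and the part of that position was not tested.

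**Figure D4:**
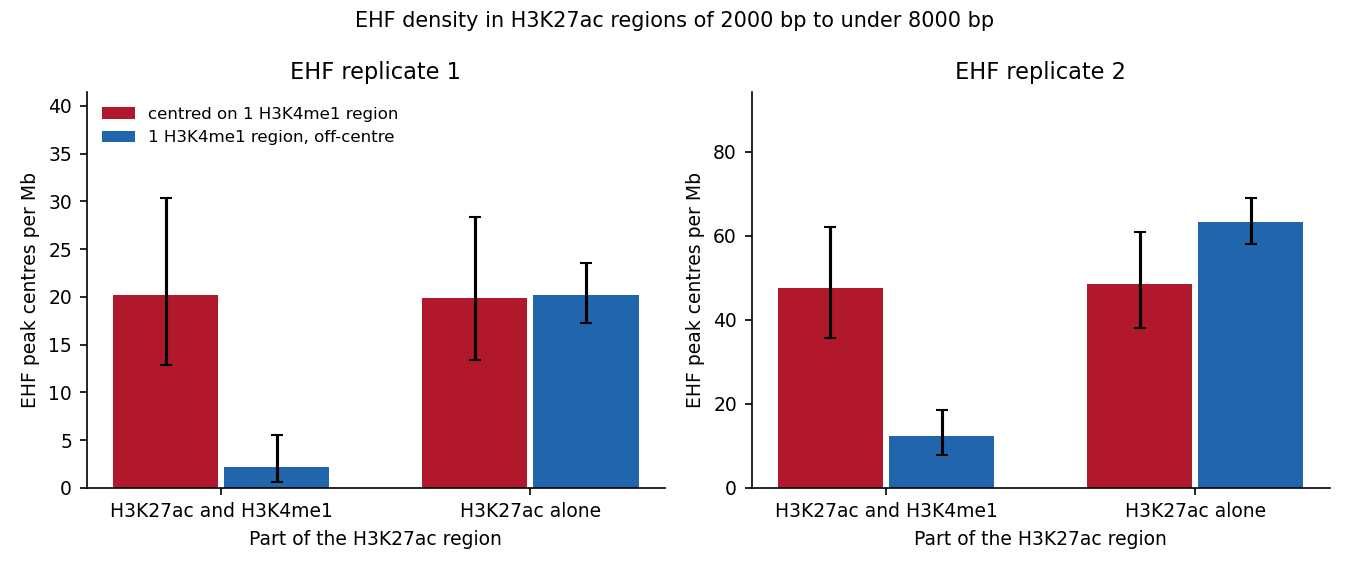
EHF peak centres per Mb (vertical axis) in bases with both marks and in bases with H3K27ac alone (horizontal axis), for centred and off-centre H3K27ac regions of 2000 to under 8000 bp, in replicate 1 (left) and replicate 2 (right), with exact Poisson 95% intervals as bars. Centred regions have 47.5 and 48.4 per Mb in replicate 2, and off-centre regions have 12.4 and 63.3.

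EHF was also less gathered at the middle of centred regions in replicate 2, with separate intervals only in the class of 1000 to under 2000 bp. Of the 77 replicate 2 peak centres in members of 1000 to under 2000 bp, 63.6% (51.9% to 74.3%) lay in the central 50% of the region. The share was 91.2% (85.7% to 95.1%) of 159 in off-centre regions and 80.1% (76.9% to 83.1%) of 679 in regions without H3K4me1, and neither interval overlaps that of centred regions. In regions of 2000 to under 8000 bp it was 71.7% (63.0% to 79.3%) of 127 in centred regions, 81.1% (77.6% to 84.3%) off-centre and 76.0% (72.8% to 79.1%) without H3K4me1, with intervals that overlap that of centred regions. In members under 1000 bp it was 39.1% of 46, against 39.6% of 250 without H3K4me1. Replicate 1 gave 76.2% of 21 and 69.8% of 53 in the 2 wider classes of members. Its values were 87.0% and 86.0% off-centre and 84.1% and 79.0% without H3K4me1, and the intervals overlapped. In members under 1000 bp it had 1 of 13 in the central 50%, against 34.8% of 46 without H3K4me1, with overlapping intervals.

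The EHF peaks inside centred regions recurred about as often as those of each whole list, which includes peaks outside H3K27ac. In replicate 1 they recurred less often than peaks in the other kinds of H3K27ac region. Of the 97 replicate 1 peaks in them, 49 were found in replicate 2, or 50.5% (40.2% to 60.8%), beside 50.0% of the whole replicate 1 list. The share was 62.1% (55.6% to 68.4%) in off-centre regions, 64.8% (59.9% to 69.5%) in regions without H3K4me1, 68.0% in regions with 2 or more H3K4me1 regions and 73.3% (62.6% to 82.2%) in regions of 8000 bp or more. Outside H3K27ac it was 28.4%. The interval for centred regions overlaps those of the first 3 and lies below that of regions of 8000 bp or more. This difference was not tested. Replicate 1 scores were alike, with a median of 10 in centred, off-centre and H3K4me1-free regions. Of the 269 replicate 2 peaks in centred regions, 47 were found in replicate 1, or 17.5% (13.1% to 22.5%), beside 14.7% of that list. The share was 20.1% in off-centre regions, 14.6% without H3K4me1, 25.5% with 2 or more H3K4me1 regions and 22.2% at 8000 bp or more. Each list was assigned to regions by its own peaks, so these counts differ slightly.

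The 49 sites of both lists that lay in centred regions make up 6.38% of all such sites. Their scores ranged from 8 to 20 in replicate 1, with a median of 11, and from 7 to 56 in replicate 2, with a median of 18. Over all shared sites the medians were 10 and 15. The centre of the site lay in H3K4me1 in 23 and beside it in 26. They were spread over 16 chromosomes, with 8 on chromosome 16, 6 on chromosome 8 and 5 each on chromosomes 2 and 5.

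Among the 10 centred regions with the best mean rank of EHF scores, the first was the region chr3:177245194-177247432 (2239 bp). Its site scored 20 in replicate 1 and 45 in replicate 2, in place 15 among all shared sites. H3K4me1 filled 92.0% of this region, and the site lay in it, 165.5 bp from the midpoint. The second, chr7:31531328-31535069, was 3742 bp wide with 94.1 scaled H3K27ac tags per kb. Its H3K4me1 region of 631 bp filled 16.9%, and the site, with scores of 18 and 56, had its centre 143.5 bp outside that island. These first 2 show the contrast between a filled and a sparsely filled member.

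The third, chr16:11704724-11709297 (4574 bp), had a site with scores of 17 and 34 at 633.5 bp from an H3K4me1 region of 692 bp. The fourth, chr7:17407357-17413009 (5653 bp), held an H3K4me1 region of 3628 bp with the site inside it, at scores of 16 and 33. The fifth, chr15:74280667-74282732, was filled to 99.0% and its site, with scores of 15 and 37, lay 212 bp from the midpoint. The sixth, chr1:244465189-244468401, was the only one of the 10 with 2 replicate 2 peaks, and its shared site scored 16 and 26. The remaining 4 lay on chromosome 6 (chr6:158480105-158482348) and chromosome 8 (chr8:123816973-123820147, chr8:134663573-134665537 and chr8:143755811-143760939), with scores of 14 to 16 and 21 to 31. Of the 10, 4 had the site in H3K4me1, and the other 6 had it at 105.5 to 633.5 bp from the H3K4me1 edge.

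The 10 centred regions with the best mean rank of both mark densities were named outside the high-score stretch of chromosome 17 (37500001 to 39000000), which held 1 centred region. The first was chr20:36753322-36756072, with 90.9 scaled tags per kb of H3K27ac and 52.6 of H3K4me1 over 818 bp, and no EHF peak. The second, chr3:171973896-171980745, was 6850 bp wide with 89.9 and 49.5 per kb. The third, chr3:171591286-171594817, had 85.5 and 49.0 per kb and an H3K4me1 region that filled 72.8% of it. The others were chr8:134826255-134830587, chr3:182106301-182107373, chr8:32775979-32776868, chr3:149032779-149035318, chr20:43356075-43361630, chr19:55720415-55722258 and chr18:74799269-74802290. In all 10 the H3K4me1 region lay wholly inside the acetylated one, 4 of them lay on chromosome 3, 5 held 1 replicate 2 peak and none held a replicate 1 peak. The shares in replicates 2 and 1 were 5.66% and 2.08% of all centred regions and 8.99% and 2.65% of all H3K27ac regions. These 10 were picked by mark density, H3K27ac density and the EHF share both rose with width, and the part of width was not tested. None of these 10 was among the 10 named for EHF, which follows from the counts because each of those held a replicate 1 peak.

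Some regions lay at the borders of the rule. The widest member, chr18:21789059-21797029, was 7971 bp wide, and the narrowest region kept out by width alone, chr2:13671350-13679699, was 8350 bp wide. In all, 11 regions were kept out by width alone. At the midpoint border, chr1:151578281-151580206 had its midpoint 0 bp inside the H3K4me1 edge and was filled to 50%, and chr12:68188398-68189995 had its midpoint 0 bp outside and was filled to 31.4%. None of these 4 held an EHF peak.

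Centred regions were unevenly spread over the chromosomes. Per 100 H3K27ac regions there were 19.8 (17.2 to 22.7) on chromosome 18, 19.4 (17.7 to 21.2) on chromosome 5 and 18.9 (15.9 to 22.1) on chromosome 22. There were 3.14 (2.16 to 4.41) on chromosome X, 3.43 (2.21 to 5.06) on chromosome 13, 6.67 (5.29 to 8.27) on chromosome 19 and 7.42 (6.25 to 8.72) on chromosome 4. The order followed how much H3K4me1 was called, which was 28.9 regions per 100 H3K27ac regions on chromosome 13 and 131 on chromosome 5 (Spearman rho 0.92 over 23 chromosomes, which share both libraries, a description). Per 100 H3K4me1 regions the spread was narrower, from 8.40 on chromosome X and 11.9 on chromosome 13 to 17.5 on chromosome 21. The median H3K27ac score per kb of the centred regions was 18.0 on chromosome 13, 20.5 on chromosome 9, 21.4 on chromosome 4 and 29.9 on chromosome 20. Copy number and tags per chromosome were not analysed here, and their part was not tested.

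EHF in centred regions varied over chromosomes, as it did in all H3K27ac regions. A replicate 2 peak was found in 1 of 134 centred regions on chromosome 4 (0.746%, 0.0189% to 4.09%), beside 4.43% of all H3K27ac regions there. None was found in 107 on chromosome 9, beside 5.00% of all regions there. The exact interval of this 0 reaches 3.39%, and a limit of 3 counts is 2.80%. None was found in 24 on chromosome 13, beside 2.57% of all, where the exact interval reaches 14.2% and a limit of 3 counts is 12.5%. The shares of centred and of all regions were 9.77% (5.31% to 16.1%) and 14.4% on chromosome 17, 8.56% (4.97% to 13.5%) and 12.0% on chromosome 16, and 7.94% (5.49% to 11.02%) and 10.2% on chromosome 5. Chromosome 18, which was richest in centred regions, had a peak in 4 of 172 (2.33%, 0.637% to 5.85%), beside 8.65% of all. The share was lower in centred than in all regions on each of the 23 chromosomes, and this difference was not tested. Centred regions were also narrower, and the part of width was not tested. Per Mb over all chromosomes, replicate 2 had 45.3 peaks (40.1 to 51.1) in centred regions and 51.3 (49.6 to 53.1) in all H3K27ac regions. Replicate 1 had 16.3 (13.3 to 19.9) and 14.4 (13.5 to 15.4), the other order. The intervals overlapped in both replicates.

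**Figure D5:**
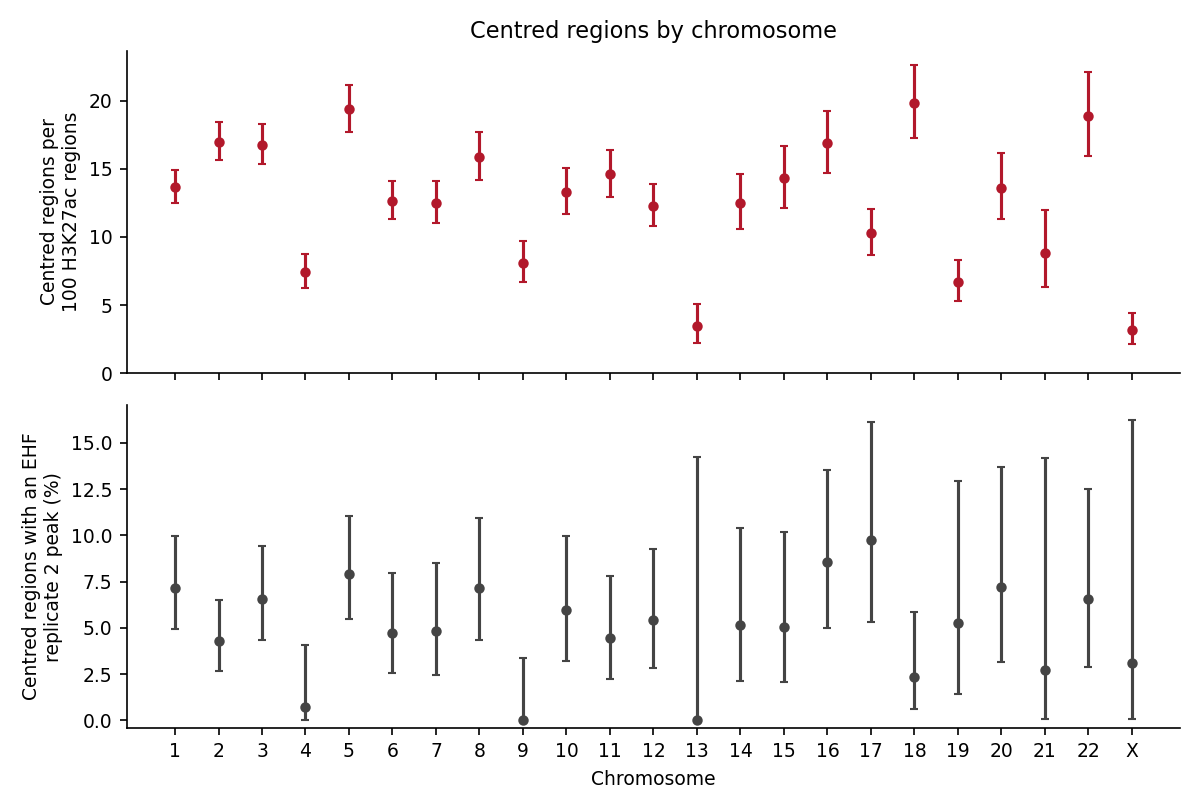
Centred regions per 100 H3K27ac regions (top) and share of centred regions with an EHF replicate 2 peak (bottom, %) for 22 autosomes and chromosome X (horizontal axis), with exact 95% intervals as bars. Chromosomes 13 and X have the fewest centred regions, at 3.43 and 3.14 per 100, and chromosomes 9 and 13 have 0 with an EHF peak.

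Centred regions tended to have acetylated neighbours. The next H3K27ac region lay a median of 5542 bp away (quartiles 1645 and 18918 bp), against 8704 bp over all H3K27ac regions, 6233 bp for off-centre regions and 11297.5 bp for regions without H3K4me1. A neighbour within 5000 bp was found for 47.5% of centred regions (46.1% to 49.0%), against 38.7% of all H3K27ac regions. The share was 44.5% (43.1% to 45.8%) of off-centre regions, 53.5% (51.1% to 55.9%) of regions with 2 or more H3K4me1 regions and 33.8% (33.2% to 34.4%) of regions without H3K4me1. Close neighbours were thus common to regions with H3K4me1 and not a trait of centred ones alone. The next other H3K4me1 region lay a median of 7103 bp away. The next centred region was a median of 71484 bp away, and 12.5% (11.5% to 13.5%) of members had one within 5000 bp. This is a part of the 47.5% that had any H3K27ac region within 5000 bp, and no expected share was computed for it. Centred regions occurred in 1639 of the 2614 bins of 1 Mb that held any H3K27ac region, and 275 bins held 5 or more. The bin chr22:46000001-47000000 held 20 centred regions among 58 H3K27ac regions, and chr19:39000001-40000000 and chr8:134000001-135000000 held 15 each. Among the 20 on chromosome 22, 2 had a replicate 2 peak and none a replicate 1 peak. The bin chr16:81000001-82000000 held 14, of which 4 had a replicate 1 peak and 4 a replicate 2 peak, counted separately. The shares in replicates 1 and 2 were 2.08% and 5.66% of all centred regions and 2.65% and 8.99% of all H3K27ac regions. The bins named here were picked after their counts were seen.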

How the data were processed

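Bowtie 1.0.0, HOMER 1.2 and hg19 are named in the submitters' processing notes. Per the file headers, the authors called each library separately with findPeaks (factor style for EHF, histone style for the marks) at a false discovery rate of 0.01, with 4-fold over input and Poisson p of 1e-04. Mark calls were stitched from 500 bp windows. The deposited score is a tag count the authors scaled to 10000000 tags and rounded, per the file headers, and it is not relative to input. A region missing from a list did not pass these rules, which near the tag threshold depends on depth.

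Start positions were shifted to count from 1. Overlap meant at least 1 bp in common. A shared EHF site is a replicate 1 peak overlapping a replicate 2 peak, taken as the joint span of both, and its centre is that of the span. Shares, densities and intervals were computed with scipy 1.17.1, pandas 2.3.3 and numpy 2.4.6 under Python 3.11.15. Region classes were tested on 20 simulated lists of 400 regions, with 0 wrong. The simulated regions were wider than most members and none had its midpoint close to the H3K4me1 edge, so such cases were not covered. No test across samples was possible. Members and lists were chosen with earlier results of these data known. Named regions were the 10 best by mean rank of EHF scores among members with a shared site, the 10 best by mean rank of both mark densities, and those at the borders. Alternatives for the width limit, overlap, merging, score, EHF library and chromosome 17 were run. Those needing hg19 sequence or annotation, and the gene lists, were not analysed here.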

Additional observations from a re-analysis of the deposited data

How the results depend on the processing

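Of 55 alternative values, 35 stayed within the 95% interval of the reported value and 20 left it. Width limits of 6000 and 10000 bp, peaks judged by their centre, merged H3K27ac regions and omission of the chromosome 17 stretch moved none out. The width limits left 4592 and 4621 members and the omission 4612, against 4613 in the main setting. These settings could hardly move a value, so the count of values that stayed is no measure of robustness. Merging H3K4me1 across 1000 bp gave 5317 members, with EHF in 2.54% (replicate 1), 6.94% (replicate 2) and 1.45% (both lists), 34.3% with H3K4me1 wholly inside and a median fill of 79.4%. Limiting both marks to intervals at or above their median total score, not per kb, left 1290 members. EHF was in 5.43%, 13.5% and 2.64% of them, beside 4.55%, 15.0% and 2.95% of all regions so limited. In replicate 1 centred regions thus went from below all regions to above, with an interval (4.25% to 6.81%) that includes the value of all regions. When only its top-scoring peaks were kept, equal in number to those of replicate 1, replicate 2 gave 2.04% with a peak and 0.737% with a shared site, beside 3.09% and 1.06% of all. Members wider than 1 window in both marks, an alternative chosen after seeing the data (2483 members), gave 3.02%, 7.53% and 1.53% with EHF. The values over all regions, 2.65%, 8.99% and 1.71%, were not limited in this way and include single windows. They are no like comparison, and no order is read from them. The 2483 members had 39.7% with H3K4me1 inside, a median fill of 74.9% and a median H3K27ac score of 26.98 per kb. The cause of these shifts was not tested. Extending H3K4me1 by 200 bp raised the EHF density ratio of both marks to H3K27ac alone from 0.65 to 0.92 in replicate 2 and from 0.68 to 0.90 for sites of either list, with intervals that include 1. Without replicate 1 or without replicate 2, the share with EHF became 5.66% and 2.08% in place of 1.06% for shared sites, and the ratio was 0.65 and 0.79. Alternatives needing hg19 annotation or sequence were not run. No paired analysis was possible because the EHF libraries were compared with no other replicated group. At this depth, shares on single chromosomes with under 150 members have wide intervals.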
